A study of Mus musculus with 4 samples.

Results

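The 10 genes described here mark stem and progenitor cells of the stomach or respond to WNT signaling: *Lgr5*, *Axin2*, *Lrig1*, *Tnfrsf19*, *Runx1*, *Sox2*, *Ascl2*, *Rnf43*, *Znrf3* and *Bmi1*. They were taken by name from 46095 genes in a count table of gastric RNA, and all 10 were found. The table compares 2 WT and 2 *Atp4b-cre;MycOE* mice of the C57BL/6 strain at 12 weeks of age, and the transgenic samples carry the label MYC-KI. The study's design text speaks of triplicates, and the 2 labelled samples of each genotype are the ones analysed here. These mice (*Atp4b-cre; Myc fl/+* in the methods) express Cre recombinase from the *Atp4b* promoter, which is active in parietal cells and their lineage, and Cre there turns on a transgene for human *c-Myc*. The WT mice are *Myc fl/fl* littermates, so none of them is described as carrying Cre.

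The gastric epithelium is renewed from dividing cells in the isthmus of each gland, and slowly dividing cells at the gland base can act as a reserve. WNT ligands bind Frizzled and LRP receptors, which spares beta-catenin from destruction and lets it act with TCF/LEF factors on target genes. Some of those targets act back on the pathway: *Axin2* rebuilds the destruction complex, *Rnf43* and *Znrf3* remove Frizzled from the cell surface, and *Lgr5* is a receptor for R-spondins, which neutralize RNF43 and ZNRF3.

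In the deposited table the counts in both MYC-KI columns do not stand beside the genes they belong to, and the first step was to order the gene names by character code, capitals before lower case, and to hand these counts to them one by one down the column. This used names only. Over the 60 rows that flank each of the 10 genes, Pearson's r between the mean log2(count + 1) of the genotypes lay between 0.958 and 0.994 after this step, whereas before it no r exceeded 0.283 over the 9 genes for which one could be computed. These correlations are across genes, which are not independent replicates. None of the 10 genes keeps its place between the orders, so every MYC-KI value below depends on the re-sorting. The libraries held 30260305 to 41463647 counts. The marker genes *Xist* (17846 counts) and *Ddx3y* (5 counts) set WT replicate 2 apart as the only library with a female pattern, since *Xist* had 85 to 201 and *Ddx3y* 1861 to 2623 counts in the other libraries. The mouse *Myc* gene had 1062 and 759 counts in the WT libraries and 735 and 1091 in the MYC-KI libraries, or 31.6 and 27.2 normalized CPM (counts per 1000000 of the TMM-scaled library) against 21.7 and 24.4 (log2 fold change -0.35, adjusted p = 0.163 in edgeR), and the human transgene has no row. The parietal cell gene *Atp4b*, whose promoter drives Cre, had 87583 and 69469 counts in WT, against 1301 and 2310 in MYC-KI. Fewer cells of a type and less RNA per cell cannot be told apart in such bulk samples.

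*Sox2* was the only member that was called, which required an adjusted p-value below 0.05 in edgeR's quasi-likelihood test and a change of more than 1.5-fold, and it was 3.90-fold higher in MYC-KI. Members called higher were thus 1 of 10, and members called lower 0 of 10, beside 5.65% and 5.08% of the 17643 genes tested. At an unadjusted p under 0.05 edgeR had 2 members higher and 0 lower, beside 34.1% of tested genes in either direction, and DESeq2 called 0 members lower. All 10 members passed the filter on low counts. Their median log2 fold change was -0.20, beside 0.01 over all tested genes. The samples of the genotypes did not overlap for 5 members, against 64.9% of all tested genes. Of these, *Sox2*, *Runx1* and *Ascl2* were higher in MYC-KI, as were 33.3% of tested genes, and *Lgr5* and *Bmi1* lower, as were 31.5%. Without the re-sorting, 1 member was called higher and 8 lower, beside 42.7% and 41.5% of all genes tested in the deposited order. With library size in place of TMM scaling, which shifts the median of all genes to 0.23, *Axin2* (0.022) and *Bmi1* (0.029) turned from below to above 0.

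**Figure D1:**
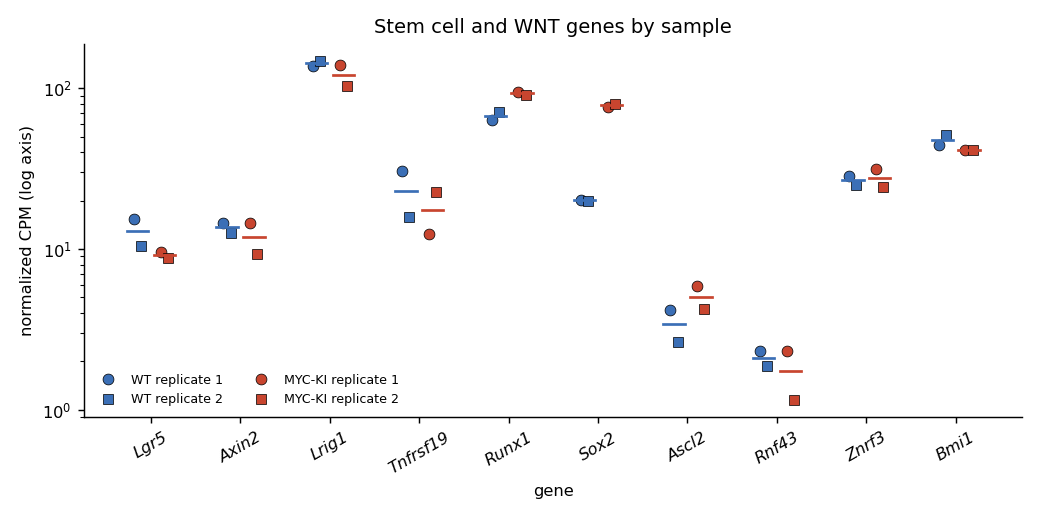
Normalized CPM (log axis) of the 10 genes in each of the 4 samples. Blue marks WT and red MYC-KI, circles replicate 1 and squares replicate 2, and short lines the genotype means. *Sox2* stands at 20.1 and 20.0 in WT and at 76.5 and 80.0 in MYC-KI, while for most other genes the genotypes lie close together or overlap.

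*Sox2* encodes a transcription factor of the foregut that is kept in the adult stomach, where it marks epithelial progenitor cells and also squamous cells of the forestomach. The WT samples held 675 and 557 counts of it and the MYC-KI samples 2596 and 3573, or 20.1 and 20.0 normalized CPM against 76.5 and 80.0. Both transgenic samples lay far above both WT samples, and replicates of a genotype differed by less than 1.05-fold. The log2 fold change was 1.97 (standard error 0.08, 95% interval 1.74 to 2.19, adjusted p = 0.00897 in edgeR, n = 2 per genotype). Among the 996 genes called higher, 128 had a rise at least this large. Leaving out any sample left the value between 1.93 and 1.998, but without WT replicate 1 or WT replicate 2 its adjusted p was 0.196 and 0.232, in fits that called no gene at all. The second of these fits holds male-pattern libraries only, and its unadjusted p for *Sox2* was 0.000569.

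The *Sox2* gene lies at chr3:34650405-34652461 (plus strand, GRCm38, GENCODE vM21) within the span of the non-coding gene *Sox2ot*, whose exons do not overlap it. *Sox2ot* had 11 and 6 counts in the WT samples and 19 and 41 in the MYC-KI samples, far below *Sox2* itself. The 250 bases before the RefSeq start of *Sox2* are shown because it is the member that changed. They run over chr3:34649745-34649994 on the plus strand (GRCm38.p6), and capitals mark the only match to a TCF/LEF motif, which begins at position -207 from the start.
Sox2: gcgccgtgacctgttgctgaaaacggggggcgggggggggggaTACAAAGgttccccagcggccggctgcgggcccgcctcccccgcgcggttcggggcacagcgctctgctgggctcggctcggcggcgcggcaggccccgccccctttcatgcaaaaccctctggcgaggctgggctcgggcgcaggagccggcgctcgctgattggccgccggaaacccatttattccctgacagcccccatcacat

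The TCF/LEF motif was searched on both strands as CTTTG followed by 2 bases that are each A or T, and the E-box of MYC and MAX, which reads the same on both strands, as CACGTG. RefSeq windows of 300 bases, 250 of them before a start, existed for 8 of the 10 members in 11 windows. A TCF/LEF match was found for *Sox2* and *Tnfrsf19*, or 2 of 8 members, beside 18.9% of 27025 genes. An E-box was found for *Bmi1*, *Tnfrsf19* and *Runx1*, or 3 of 8 members, beside 8.09% of all genes. The *Runx1* match at chr16:92826140-92826145 lies in an exon that GENCODE annotates. The other E-boxes are shown in capitals with their surroundings, since the transgene of this model encodes a factor that binds these letters; *Bmi1* covers chr2:18676776-18676835 on the plus strand and *Tnfrsf19* chr14:61038088-61038147 on the minus strand. A match is a string of letters and not a measured binding site, and none of the 3 genes with an E-box was called.
Bmi1: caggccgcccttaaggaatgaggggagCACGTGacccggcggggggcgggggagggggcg
Tnfrsf19: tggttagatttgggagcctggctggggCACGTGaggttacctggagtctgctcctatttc

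*Runx1*, a transcription factor of blood formation that also marks isthmus progenitors in the stomach, was the only other member with an adjusted p under the threshold. It had 2145 and 1976 counts in WT, against 3219 and 4065 in MYC-KI, or 63.9 and 70.8 normalized CPM against 94.9 and 91.0. The genotypes did not overlap. Its log2 fold change of 0.46 (standard error 0.09, 95% interval 0.22 to 0.70, adjusted p = 0.0458 in edgeR) passed the p-value threshold and not the fold threshold. By the p-value alone 6.98% of tested genes were higher. *Runx1* passed both thresholds only with library size in place of TMM scaling (0.69). Its adjusted p was 0.00702 in the test of DESeq2. In edgeR it was 0.0264 with no filter on low counts and 0.0380 with at least 10 counts in every sample. It was 0.0507 in edgeR with the size factors of DESeq2 and 0.0965 with the replicate number as a block. Leaving out a sample gave adjusted p-values of 0.0529 to 0.243.

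*Runx1* is also expressed in leukocytes. Of 6 leukocyte markers 0 were called higher and 3 lower in MYC-KI, namely the myeloid genes *Itgam* (log2 fold change -1.76), *Csf1r* (-1.56) and *Lyz2* (-1.60), and their summed level was 228.1 and 240.1 CPM in WT and 96.0 and 85.2 in MYC-KI. The pan-leukocyte gene *Ptprc* was at 14.99 and 21.2 CPM in WT and 21.9 and 13.3 in MYC-KI, and the lymphocyte genes *Cd3e* and *Cd79a* also overlapped between the genotypes, with log2 fold changes of 0.12 and -0.28. Of 5 mast cell markers 3 were called higher, 4 had log2 fold changes above 0 and the lowest was at -0.15. Their sum was 67.4 and 89.6 CPM in WT and 221 and 230.2 in MYC-KI. The part of leukocytes or mast cells in the *Runx1* value was not tested.

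*Lgr5*, the R-spondin receptor that marks stem cells of the antral gland base and a subset of chief cells, had 512 and 293 counts in the WT samples and 326 and 395 in the MYC-KI samples. On the normalized scale both MYC-KI samples (9.61 and 8.84 CPM) lay below both WT samples (15.3 and 10.5 CPM), but the WT samples differed from each other by 1.45-fold. The log2 fold change was -0.48 (95% interval -1.12 to 0.16, adjusted p = 0.238). Without WT replicate 1 the value was -0.19, and without WT replicate 2 it was -0.73. All 4 chief cell markers were called lower, with a summed level of 80484 to 84819 CPM in WT and 1160 to 1494 in MYC-KI. Among the 3 antral markers *Sst* was called lower, *Pdx1* (log2 fold change -0.90) was not, and the hormone gene *Gast* was at 396 and 224 CPM in WT and 55.0 and 106 in MYC-KI (adjusted p = 0.0602). The part of chief or antral cells in the *Lgr5* value was not tested.

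*Tnfrsf19* encodes TROY, a receptor of the TNF family that marks reserve-like chief cells in the corpus. Its counts were 1020 and 441 in WT and 421 and 1007 in MYC-KI. The normalized values were 30.4 and 15.8 CPM in WT and 12.4 and 22.5 in MYC-KI, so the replicates of each genotype differed by 1.92-fold and 1.82-fold and the genotypes overlapped. Its log2 fold change was -0.40 (95% interval -1.59 to 0.79, adjusted p = 0.574) and became 0.14 without WT replicate 1. Marker sums of smooth muscle and forestomach squamous cells had the same order within each genotype. So did those of chief, antral, pancreatic acinar, and enteric neuron and glia markers. The smooth muscle sum was 6514 and 4116 CPM in WT and 2095 and 4476 in MYC-KI, and the squamous sum 2042 and 1135 in WT and 668 and 3587 in MYC-KI. The part of any of these cell types in the *Tnfrsf19* value was not tested.

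*Lrig1*, a brake on growth factor receptors that marks progenitors in several epithelia, was the member with most counts, at 4612 and 4127 in WT and 4751 and 4603 in MYC-KI. Normalized values of 137 and 148 CPM in WT and 140.1 and 103 in MYC-KI overlapped. The log2 fold change of -0.23 (95% interval -0.69 to 0.23, adjusted p = 0.401) was -0.0078 without TMM scaling, -0.47 without MYC-KI replicate 1 and -0.026 without MYC-KI replicate 2. *Slc25a26* overlaps its exons on the other strand with 216 to 569 counts per library, and whether the counting used strand is not given in the sources used here.

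The feedback targets of WNT signaling did not pass in either direction. *Axin2*, the most widely used readout of the pathway, had 490 and 353 counts in WT, against 490 and 415 in MYC-KI. MYC-KI replicate 1 (14.4 CPM) lay within the WT range of 12.7 to 14.6 CPM, and MYC-KI replicate 2 (9.29 CPM) below it. Its log2 fold change was -0.20 (95% interval -0.91 to 0.51, adjusted p = 0.642), and it was -0.55 without MYC-KI replicate 1 and 0.084 without MYC-KI replicate 2.

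*Znrf3*, the ubiquitin ligase that clears Frizzled, had 955 and 699 counts in the WT samples and 1060 and 1078 in the MYC-KI samples. Its normalized level was 26.8 ± 2.41 CPM (SD, n = 2) in WT and 27.7 ± 5.03 CPM (SD, n = 2) in MYC-KI, a log2 fold change of 0.049 (95% interval -0.42 to 0.51, adjusted p = 0.870). The related ligase gene *Rnf43* had the fewest counts of the set, at 78 and 52 in WT and 79 and 51 in MYC-KI. At 2.32 and 1.86 CPM in WT and 2.33 and 1.14 in MYC-KI the genotypes overlapped, and its log2 fold change of -0.28 (adjusted p = 0.724) had the widest 95% interval of the 10 genes, from -1.55 to 0.996.

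*Ascl2*, a WNT target transcription factor of intestinal stem cells, was low, with 139 and 74 counts in WT, against 199 and 189 in MYC-KI. Both MYC-KI samples (5.87 and 4.23 CPM) were above both WT samples (4.14 and 2.65 CPM) by a narrow margin. Its log2 fold change of 0.57 (95% interval -0.39 to 1.52, adjusted p = 0.331) was 0.28 without WT replicate 2 and 0.93 without WT replicate 1. *Bmi1*, a subunit of polycomb repressive complex 1 and a marker of slowly cycling cells, stayed between 41.4 and 50.9 CPM. It had 1478 and 1419 counts in WT, against 1409 and 1850 in MYC-KI, or 44.0 and 50.9 CPM against 41.5 and 41.4, a log2 fold change of -0.19 (95% interval -0.48 to 0.089, adjusted p = 0.273). The value was -0.30 without WT replicate 1 and -0.089 without WT replicate 2.

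**Figure D2:**
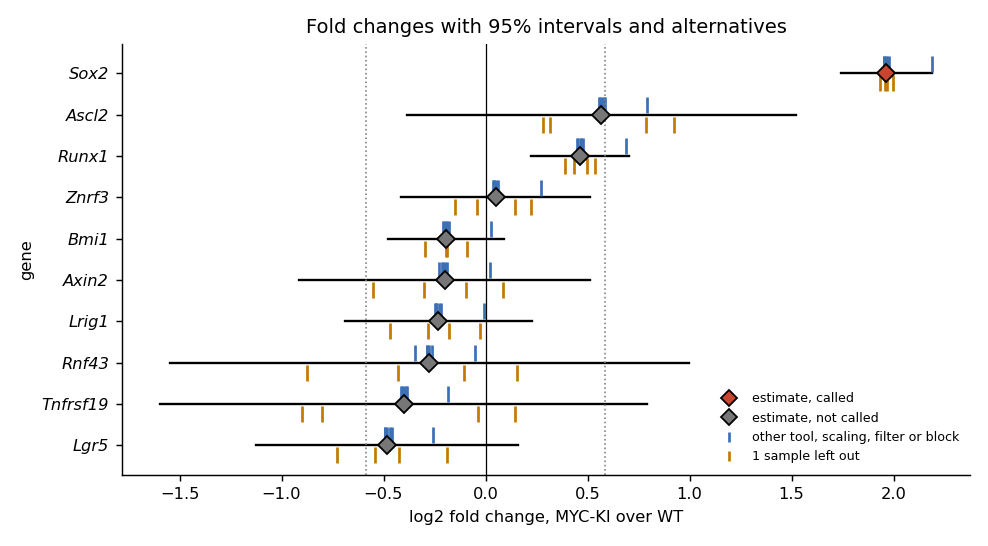
Log2 fold change of MYC-KI over WT for each gene from edgeR (diamonds, red where called) with its 95% interval (black line). Blue ticks are other tools, scalings, filters or a replicate block on the re-sorted table, orange ticks leave out 1 sample, and dotted lines mark the fold threshold. *Sox2* stays between 1.93 and 2.19 throughout, and all ticks of *Runx1* lie above 0.

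For 5 members the whole 95% interval lay within 1 log2 unit of 0, namely *Axin2*, *Lrig1*, *Runx1*, *Znrf3* and *Bmi1*. In the transgenic pair, 8 of 10 members were higher in MYC-KI replicate 1 than in MYC-KI replicate 2, with *Sox2* and *Tnfrsf19* the exceptions, and over all tested genes 49.7% were. In the WT pair 7 of 10 were higher in replicate 1, beside 50.1% of tested genes. Within MYC-KI *Axin2* differed by 1.56-fold and *Rnf43* by 2.04-fold, more than either differed between the genotypes.

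Levels were also compared between genes after division by exonic length in GENCODE vM21, which counts every annotated exon base and so understates genes with many isoforms. On this scale of normalized CPM per kb, *Lrig1* led in WT with 25.5 ± 1.33 (SD, n = 2), followed by *Bmi1* (11.9 ± 1.21) and *Sox2* (9.74 ± 0.0509), none of which overlapped the next. *Runx1* (5.603), *Tnfrsf19* (4.88) and *Znrf3* (3.39) overlapped in sequence, as did *Axin2* (2.47) and *Ascl2* (2.09), and *Lgr5* (1.25) and *Rnf43* (0.319) came last. In MYC-KI *Sox2* (38.0 ± 1.19) stood first, above *Lrig1* (21.8 ± 4.69), *Bmi1* (10.4 ± 0.0226) and *Runx1* (7.73 ± 0.230). *Tnfrsf19* (3.69), *Znrf3* (3.51), *Ascl2* (3.11) and *Axin2* (2.16) overlapped in sequence, and *Lgr5* (0.899) and *Rnf43* (0.265) again came last.

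**Figure D3:**
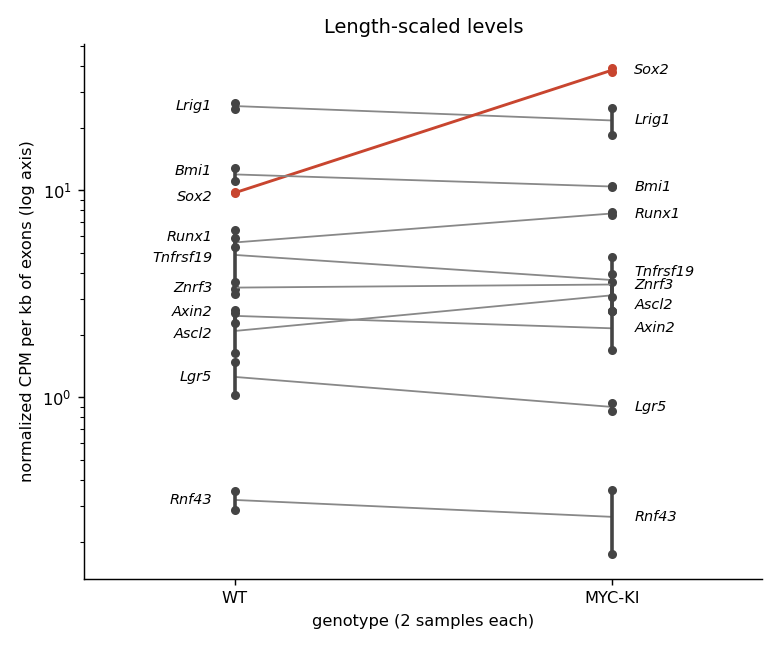
Normalized CPM per kb of exons (log axis) of each gene in WT and MYC-KI. Points are the 2 samples of a genotype joined by a bar, and lines join the genotype means. The red line of *Sox2* runs from 9.74, below *Lrig1* and *Bmi1*, to 38.0, above all others, and the other genes keep nearly the same order.

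Around these genes the WNT pathway was read from lists of its parts. Over 11 lists of WNT, stem cell, RUNX, SOX and polycomb genes, 108 of 123 genes were tested, 7 were called higher and 7 lower, beside 5.65% and 5.08% of all tested genes, and the median log2 fold change was -0.09. With lists this short and shares near that background, the counts describe single genes. The ligand list had 0 of 13 tested genes called higher and 1 lower. That gene was *Wnt2b*, a stromal ligand, with 324 and 399 counts in WT, against 111 and 154 in MYC-KI (log2 fold change -1.83, adjusted p = 0.0314). The ligand carrier *Wls* was at 120 and 123.6 CPM in WT and 88.6 and 85.7 in MYC-KI, a log2 fold change of -0.48 (adjusted p = 0.0335) that is under the fold threshold. *Wnt4* was at 27.5 and 21.1 CPM in WT and 17.7 and 50.01 in MYC-KI.

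None of 5 tested R-spondin and *Lgr* genes was called by edgeR in either direction, and 1 had an unadjusted p under 0.05. *Lgr4*, the broadly expressed relative of *Lgr5*, was at 203 and 217 CPM in WT and 169 and 161 in MYC-KI (log2 fold change -0.35, adjusted p = 0.0677). *Rspo3* was at 18.1 and 8.32 CPM in WT and 4.48 and 13.1 in MYC-KI. Of 12 receptor genes, *Fzd4* (log2 fold change -1.71, adjusted p = 0.0132) and *Fzd5* (-0.66, adjusted p = 0.0278) fell and none rose, though *Fzd5* stood under the fold threshold without TMM scaling (-0.44). The co-receptors were at 179 and 190.1 CPM in WT and 241 and 222 in MYC-KI for *Lrp5*, and at 156 and 178 against 129 and 137 for *Lrp6*. Neither was called.

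None of the 9 tested secreted inhibitors was called by edgeR, and 2 had an unadjusted p under 0.05. *Sfrp1*, the most abundant, was at 145 and 103 CPM in WT and 49.9 and 73.9 in MYC-KI (log2 fold change -1.01, adjusted p = 0.0787), and *Dkk3* was at 65.6 and 55.3 against 28.9 and 55.9. Nor was any of the 11 dishevelled and destruction complex genes called, all of which had log2 fold changes between -0.25 and 0.25, and 2 of them had an unadjusted p under 0.05. *Csnk1a1* was at 414 and 382 CPM in WT and 445 and 449 in MYC-KI, and *Apc* at 152 and 176 against 145 and 133. *Ctnnb1*, which encodes beta-catenin, was at 798 and 853 CPM in WT and 916 and 907 in MYC-KI (log2 fold change 0.14, adjusted p = 0.343). Of the 8 tested genes of its list only *Pygo1*, a nuclear partner with 64 and 49 counts in WT, against 17 and 21 in MYC-KI, was called, with a log2 fold change of -1.91 (adjusted p = 0.0462). It lost the call without any 1 of the 4 samples (adjusted p = 0.0999 to 0.247 in edgeR). *Bcl9l* was at 78.1 and 85.4 CPM in WT and 65.2 and 76.0 in MYC-KI.

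Among 12 other WNT targets, *Ccnd1* and *Ephb2* rose and none fell. *Ccnd1*, which encodes cyclin D1 and answers to many growth signals, went from 130 and 143 CPM to 229 and 230.4 (log2 fold change 0.75, adjusted p = 0.0228). *Ephb2*, an ephrin receptor that positions cells along the crypt in the intestine, went from 39.6 and 40.8 CPM to 95.8 and 81.7 (log2 fold change 1.14, adjusted p = 0.0191). *Sox9* differed more within MYC-KI (244 and 99.5 CPM) than between genotypes (115 and 127 CPM in WT). The list's median log2 fold change was -0.10.

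Of 16 further stem and isthmus genes, 12 had a log2 fold change above 0, 2 were called higher and 2 lower, and the median was 0.39. *Dclk1*, a kinase gene of tuft cells that has also been used as a stem cell marker, rose from 24.5 and 30.3 CPM to 124 and 82.6 (log2 fold change 1.91, adjusted p = 0.0254). *Iqgap3*, a scaffold gene of dividing isthmus cells, rose from 16.2 and 15.1 CPM to 26.8 and 24.2 (log2 fold change 0.70, adjusted p = 0.0427). The stem and isthmus genes of this list that fell were *Bhlha15* (log2 fold change -2.23), also needed for chief cell maturation, and *Cckbr* (-1.76), which encodes the gastrin receptor. Prominin gene *Prom1* was at 377 and 458 CPM in WT and 793 and 631 in MYC-KI (log2 fold change 0.77, adjusted p = 0.0559), and *Krt19* at 2404 and 2747 against 2543 and 3050.

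The relatives of 3 members were read in the same fit. Beside *Runx1*, its DNA-binding partner *Cbfb* was at 64.7 and 77.5 CPM in WT and 100.9 and 82.4 in MYC-KI (adjusted p = 0.173), and the corepressor gene *Runx1t1* fell (log2 fold change -1.37, adjusted p = 0.0268). Beside *Sox2*, *Sox4* rose from 30.7 and 39.8 CPM to 74.4 and 69.4 (log2 fold change 1.03, adjusted p = 0.0309), whereas *Sox21* was at 130 and 122 CPM in WT and 116 and 115 in MYC-KI. Of the 15 tested genes of polycomb complex 1, to which *Bmi1* belongs, *Pcgf6* (log2 fold change 1.24, adjusted p = 0.0410) and *Cbx7* (0.65, adjusted p = 0.0366) rose and none fell. *Pcgf3* was at 132 and 140 CPM in WT and 82.0 and 102 in MYC-KI, and *Cbx6* at 77.6 and 71.2 against 90.2 and 98.0.

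**Figure D4:**
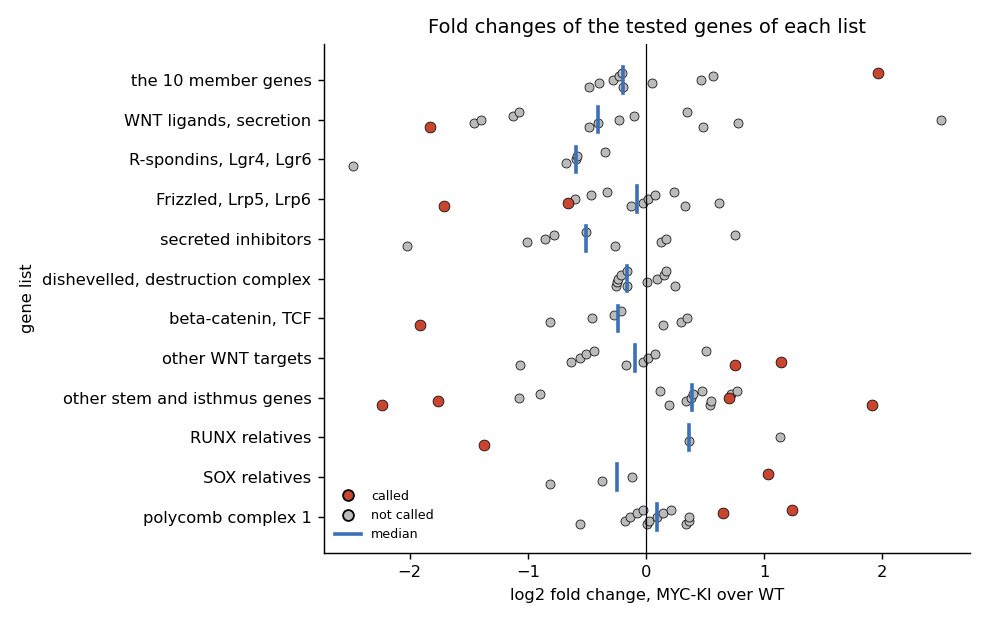
Log2 fold change of MYC-KI over WT for each tested gene of the 10 members and of 11 related lists. Red points are called, grey points are not, and the blue bar is the median of a list. The members center on -0.20 with *Sox2* alone at 1.97, and called genes lie on both sides of 0 in the list of other stem and isthmus genes.

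The samples carried the defining markers of stomach, and the marker levels of several cell types differed between genotypes. All 4 parietal cell markers were called lower, with a summed level of 10419 to 10574 CPM in WT and 181 to 244 in MYC-KI, and so were all 4 surface mucous markers. Of 3 mucous neck markers 0 were called, at sums of 11942 and 14843 CPM in WT and 25517 and 10701 in MYC-KI. All 6 proliferation markers had log2 fold changes above 0, with 1 called higher, and summed to 333 to 354 CPM in WT and 461 to 524 in MYC-KI. Of the fibroblast markers 3 of 5 were called lower, and of the endothelial markers 4 of 4. The fibroblast sum was 1868 to 2096 CPM in WT and 536 to 931 in MYC-KI. The part of fibroblasts in the *Wnt2b* value was not tested. The pancreatic markers *Cpa1* and *Prss2* had no count above 3 in any library, and only 1 marker of that list was tested, *Cela1*, which was called lower.

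Squamous cells of the forestomach and enteric glia also express *Sox2*. The squamous sum differed by 5.37-fold between the MYC-KI samples while *Sox2* differed by 1.05-fold between them, and in MYC-KI replicate 1 it was below both WT samples. The sum is carried by *Krt13* and *Krt4*. None of the 6 squamous markers was called by edgeR, and 0 had an unadjusted p under 0.05, but all 6 had log2 fold changes above 0, with a median of 1.11. *Krt14* was at 98.2 and 69.6 CPM in WT and 103 and 360.3 in MYC-KI, so its genotypes did not overlap. Enteric neuron and glia markers summed to 13.9 to 20.0 CPM in WT and 9.94 to 13.6 in MYC-KI, with 0 of 5 called and 1 at an unadjusted p under 0.05, lower in MYC-KI. The part of squamous or glial cells in the *Sox2* value was not tested.

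**Figure D5:**
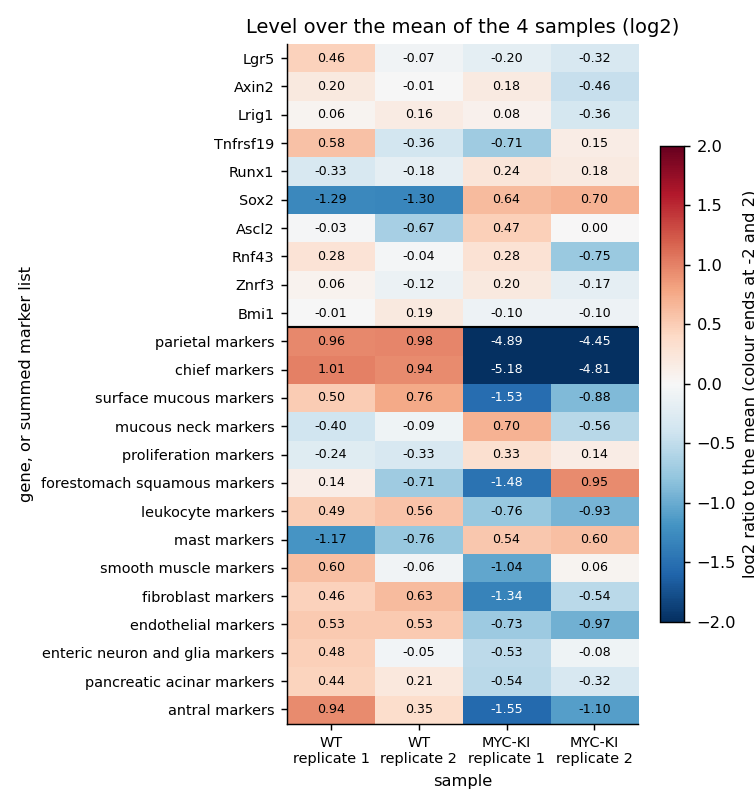
Level of each member and summed level of each marker list in the 4 samples, as log2 of the ratio to the mean of all 4 (red above, blue below, colour limited to -2 and 2, value printed in each cell). *Sox2* is at -1.29 and -1.30 in WT and 0.64 and 0.70 in MYC-KI, and parietal and chief markers fall to between -5.18 and -4.45 in MYC-KI while the other 9 genes range from -0.75 to 0.58 over the 4 samples.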

How the data were processed

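Gastric RNA from 2 WT and 2 MYC-KI mice was compared, with groups and replicate numbers taken from the sample titles. The authors deposited raw read counts per gene symbol, without normalization. The submitters' processing notes name HISAT2 and mm10, and the counting tool and annotation are not given in the sources used here. Both MYC-KI columns were re-sorted by gene name, a step chosen with the data known. No row lacked a name.

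The test of the counts was the quasi-likelihood test of edgeR 4.0.16, run in R 4.3.3 (TMM scaling, filterByExpr, no covariates, Benjamini-Hochberg adjustment over all tested genes). Called genes have an adjusted p below 0.05 and a change of more than 1.5-fold, the thresholds in the methods of the study. All adjusted p-values here are from this test, except where the test of DESeq2 is named. Standard errors are the log2 fold change over the root of F. Normalized CPM uses TMM-scaled library sizes, and a 95% interval uses the total degrees of freedom. The mice were kept under SPF (specific-pathogen-free) conditions, and RNA was extracted separately per the labels, with no batch or date given in the sources used here, so p-values measure the spread between these samples only. Replicates differed by more than counting noise (chi-square per degree of freedom 28.9 for WT and 97.9 for MYC-KI) and were kept apart, and the biological coefficient of variation was 0.295.

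The alternatives were DESeq2 1.42.0, its size factors, library size, other filters, a replicate block, other fold thresholds, each sample left out and the table as deposited. The fit was tested on simulated data. The members and lists were chosen with earlier results of these data known. From each list, every called gene and the 2 genes with the highest mean CPM are named, and marker genes were added beside a member after their values were seen. The comparisons and terms of the study itself were not used here.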

Additional observations from a re-analysis of the deposited data

How the results depend on the processing

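On the re-sorted table the rise of *Sox2* kept its direction in every setting and its call in all but the fits without WT replicate 1 or WT replicate 2, and leaving out samples one by one gave log2 fold changes of 1.93 to 1.998. In those fits edgeR called 0 genes of any kind (3554 and 3410 had an unadjusted p under 0.05), on the assumption that the lone sample varies like the pair. Left-out ranges that cross 0 were -0.55 to 0.084 for *Axin2*, -0.90 to 0.14 for *Tnfrsf19*, -0.87 to 0.15 for *Rnf43* and -0.15 to 0.22 for *Znrf3*. Leaving out a sample gave 0 to 1 members, 0 to 13 list genes and 0 to 1064 genes in all called higher, and 0 to 12 list genes and 0 to 1406 genes in all called lower. Without MYC-KI replicate 1 the adjusted p was 0.0544 for *Wnt2b*, 0.106 for *Pygo1*, 0.0841 for *Iqgap3*, 0.0627 for *Cckbr*, 0.05004 for *Pcgf6* and 0.0687 for *Cbx7*, which lost their calls, as *Pygo1* did without MYC-KI replicate 2 (0.0999). Scaled by library size alone, *Axin2* (0.022) and *Bmi1* (0.029) changed sign, *Runx1* passed at 0.69, and 2 members, 11 list genes and 2272 genes in all were called higher (75.5% of calls, against 52.6%), and 6 list genes and 739 genes in all lower, with *Fzd5* no longer called (-0.44). With no fold threshold *Runx1* passed at 0.46 and 2 members were called higher, and with an absolute log2 fold change above 1, 4 list genes and 464 genes in all were. DESeq2 called 1502 genes higher and 1732 lower, with 13 list genes lower.

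In the table as deposited, which pairs MYC-KI counts with other genes' names, *Sox2* was at 0.88, which is no second measure of that gene, *Lgr5* was at -11.78, *Axin2* at -2.07, *Lrig1* at -2.41, *Tnfrsf19* at -12.62, *Runx1* at -0.10, *Ascl2* at -1.95, *Rnf43* at -1.65, *Znrf3* at -12.83 and *Bmi1* at -1.22. *Fzd4* (0.067), *Ccnd1* (-2.06), *Dclk1* (-10.66) and *Cbx7* (-1.29) changed sign there, 8 members, 53 list genes and 9158 genes in all were called lower, and 38 list genes and 9422 genes in all higher.

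With the replicate number as a block, edgeR called 27 genes higher and 87 lower, 0 list genes higher (14 at an unadjusted p under 0.05) and 1 lower, and *Sox2* still passed (1.96, adjusted p = 0.0462), while *Runx1* did not reach the p-value threshold (0.0965). The deviations of same-numbered samples had an r of 0.058 over 13038 genes. With 1 pair of samples per genotype, this r cannot show whether same-numbered samples share a batch. The fewest reads behind a member were the 51 to 79 counts of *Rnf43*.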
